A study of Mus musculus with 8 samples.

Results

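The population described here comprised 533 adult medullary thymic epithelial cells (mTEC) that carried transcripts of Pou2af1, Nkx6-2 or Matn1 and had few transcripts of Aire, Ccl21a and the cell cycle genes Top2a and Mki67. They were taken by measured values from 7201 adult mTEC that passed the limits of 5% mitochondrial counts and 5000 genes, out of 25750 such cells in the 8 libraries of the series. A cell was a member if it held at least 2 unique molecular identifiers (UMIs, each standing for 1 captured transcript) of the 3 marker genes together, fewer than 5 UMIs of Aire, fewer than 3 of Top2a and Mki67 together, and less than 0.5% of its UMIs from Ccl21a. Replicate 1 held 108 members of 1586 mTEC (6.81%, exact 95% binomial interval 5.62 to 8.16) and replicate 2 held 425 of 5615 (7.57%, 6.89 to 8.29). These intervals cover counting error only.

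mTEC present tissue-restricted self-antigens to developing T cells, and the nuclear factor Aire drives much of that expression. Ccl21a, a chemokine that draws thymocytes into the medulla, marks the mTEC subset termed mTEC I, Aire marks mTEC II, and keratinised and tuft-like cells form further subsets. Pou2af1 is a coactivator of Oct transcription factors that is best known from B cells, Nkx6-2 is a homeobox factor of the developing nervous system, and Matn1 encodes the cartilage matrix protein matrilin-1.

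The study compared thymic epithelial cells across age by single-cell RNA sequencing on the 10x Genomics Chromium platform (v2 chemistry). Both adult mTEC libraries came from the thymus of wild-type mice of the strain labelled C57 B6 (CD45.2), sorted as DAPI- EpCAM+ CD45- Ly51- UEA-1+ cells. The labels gave neither an exact age nor the number of animals pooled, and a protocol label common to the series named bone marrow as the source while the tissue label read Thymus. The other 6 libraries were cortical epithelium (cTEC) at E15.5, E17.5, birth and adulthood and total epithelium at E13.5.

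Members were compared within each library with the 4 other classes of mTEC, assigned in a fixed order. These were 627 cycling cells (3 or more UMIs of Top2a and Mki67), 1813 Ccl21a-high cells (0.5% of UMIs or more), 2152 Aire-high cells (5 or more UMIs) and a remainder of 2076 cells that met every limit of the members except the markers. Levels are given as CPM, the UMIs of a gene scaled to the same total in every summed class, for replicate 1 and then replicate 2. Tests used edgeR's quasi-likelihood method on the summed counts with the library as a term and Benjamini-Hochberg adjustment over all genes tested. With 2 libraries and the library as a term, p-values measure only how class differences varied between these libraries. That spread was partly pooled over genes and, in the fit of all 5 classes, shared over the classes. Cells were not treated as replicates.

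Median depth was 12445 and 13783 UMIs per member against 7852 and 7960.5 in the remainder, 12753 and 14880 in Aire-high cells, and 7318 and 8445.5 in Ccl21a-high cells. The members therefore held more UMIs per cell than the remainder and the Ccl21a-high cells in both libraries, and about as many as the Aire-high cells. After each cell was thinned to 4000 UMIs, the median number of genes was 1640 and 1613 in members, 1666 and 1642 in the remainder, and 1618 and 1583 in Aire-high cells. The libraries shared 20 cell barcodes, of which 0 were members.

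The cells were epithelial by their markers. All 8 pan-epithelial genes were detected, and summed to 4836 and 4604 CPM against 5346 and 5408 in the remainder. Transcripts of other cell types were present at low summed levels. The thymocyte list summed to 12.5 and 18.2 CPM, with 7 and 2 of its 14 measured genes at 0, against 48.2 and 39.7 in the remainder. The B cell and plasma cell list, of interest because Pou2af1 is a B cell gene, summed to 53.1 and 58.9 CPM, below the 86.5 and 91.6 of the remainder and the 93.0 and 89.5 of Aire-high cells. Cd79a, a component of the B cell receptor, was at 1.48 and 5.45 CPM in members against 15.03 and 8.61 in the remainder. The myeloid and dendritic list summed to 219 and 356 CPM against 579 and 759, the mesenchymal list to 41.3 and 81.2 against 80.3 and 89.6, the endothelial list to 33.2 and 23.5 against 79.8 and 29.8, and the erythroid list to 8.85 and 62.1 against 187 and 123. The summed level of all 6 lists was lower in members than in the remainder in both libraries. Single genes did not all follow, since of 4 tested endothelial genes 1 was called higher and 1 lower. In the myeloid and mesenchymal lists 1 gene each was called lower and 0 higher. The part of these lists in the results below was not tested. The doublet caller marked 4 of 1586 and 10 of 5615 cells (0.252% and 0.178%), 0 of them members, and at that rate it did not work, so doublets stayed in.

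The 3 marker genes lie on separate chromosomes of the mouse genome (GRCm38.p6): Pou2af1 on chromosome 9 from 51213690 to 51240079, Nkx6-2 on chromosome 7 from 139579376 to 139582797, and Matn1 on chromosome 4 from 130944385 to 130955476. The 250 bases before each RefSeq start are shown because these genes defined the population and Pou2af1 acts on promoters with an octamer. They cover chr9:51213440-51213689 (plus strand), chr7:139582798-139583047 (minus strand) and chr4:130944135-130944384 (plus strand). Capitals mark the E-box CAGCTG, a motif bound by basic helix-loop-helix factors.
Pou2af1: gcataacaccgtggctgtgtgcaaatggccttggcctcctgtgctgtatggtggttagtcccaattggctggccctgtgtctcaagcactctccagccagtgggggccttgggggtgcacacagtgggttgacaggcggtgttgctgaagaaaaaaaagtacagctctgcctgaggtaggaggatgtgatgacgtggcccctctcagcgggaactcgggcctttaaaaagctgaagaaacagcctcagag
Nkx6-2: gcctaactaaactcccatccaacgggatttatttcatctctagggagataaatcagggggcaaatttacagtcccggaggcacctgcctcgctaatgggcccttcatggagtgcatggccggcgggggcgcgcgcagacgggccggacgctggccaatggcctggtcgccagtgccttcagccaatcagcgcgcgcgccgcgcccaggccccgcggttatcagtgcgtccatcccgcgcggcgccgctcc
Matn1: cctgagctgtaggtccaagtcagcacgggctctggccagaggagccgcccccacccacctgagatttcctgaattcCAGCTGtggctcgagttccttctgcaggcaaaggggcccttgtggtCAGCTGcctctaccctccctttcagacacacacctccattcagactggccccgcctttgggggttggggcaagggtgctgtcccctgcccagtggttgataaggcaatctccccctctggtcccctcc
Both strands were searched for that E-box and for the octamer ATGCAAAT, neither of which contains the other. The Matn1 window held 2 E-boxes, and none of the 3 windows held an octamer. Among all 32851 windows, 526 (1.60%) held an octamer and 4271 (13.001%) an E-box. Windows of the genes called higher in members than in the remainder held an octamer in 0.552% (6 of 1087) and an E-box in 10.9%. Windows of all genes tested held them in 1.37% and 12.7%, and those of the genes called lower in 2.35% (16 of 680) and 13.53%. Octamers were in 1.82% of the windows of genes higher and 2.54% of those of genes lower than in Aire-high cells. Against all other mTEC the shares were 0.426% (1 of 235) and 2.86% (12 of 420), and against Ccl21a-high cells 1.35% and 1.28%. For the E-box, genes higher and lower than in Aire-high cells stood at 13.1% and 15.1%. Against all other mTEC they stood at 14.9% and 16.9%, and against Ccl21a-high cells at 12.8% and 14.8%. These shares were not tested.

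The members were mostly defined by Nkx6-2. It was detected in 82.4% and 83.8% of them, Pou2af1 in 58.3% and 51.5%, and Matn1 in 25.0% and 28.2%. More than 1 of the genes was detected in 59.3% and 56.2% of members, and all 3 in 7 and 31 cells. The commonest combinations were Nkx6-2 with Pou2af1 (44 and 135 cells) and Nkx6-2 alone (32 and 143 cells), whereas Matn1 alone was held by 7 and 16 cells. The median member carried 5 and 4 marker UMIs, and the highest 26 and 31. Free RNA in droplets gives UMIs in cells that do not express a gene, so the share of cells with a UMI is set beside that of sorted cTEC, which were separate libraries with free RNA of their own. In the 2 adult cTEC libraries, Nkx6-2 was detected in 3.16% and 1.495% of cells, Pou2af1 in 0% and 0.187%, and Matn1 in 0% of both, against 25.4% and 33.7%, 14.2% and 16.6%, and 11.9% and 12.1% of adult mTEC. The cTEC libraries were shallower, with a median of 3996 and 7062 UMIs per cell against 9500.5 and 11386.

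As fixed by the rule, the summed level of each marker was highest in the members. Nkx6-2 stood at 338 and 246 CPM in members, 14.5 and 16.2 in the remainder, 106 and 97.5 in Aire-high cells, 29.9 and 42.1 in Ccl21a-high cells and 67.0 and 69.2 in cycling cells. Matn1 had a separate second site, at 64.7 and 65.8 CPM in Ccl21a-high cells, against 109.9 and 72.7 in members and 16.5 and 14.5 in Aire-high cells. Pou2af1 was at 98.1 and 76.4 CPM in members and at most 33.0 CPM in any other class. The markers were not confined to the members, since of all 391 and 1433 mTEC with 2 or more marker UMIs 27.6% and 29.7% were members, 37.9% and 38.8% Aire-high, 22.5% and 14.8% Ccl21a-high and 12.02% and 16.7% cycling.

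**Figure D1:**
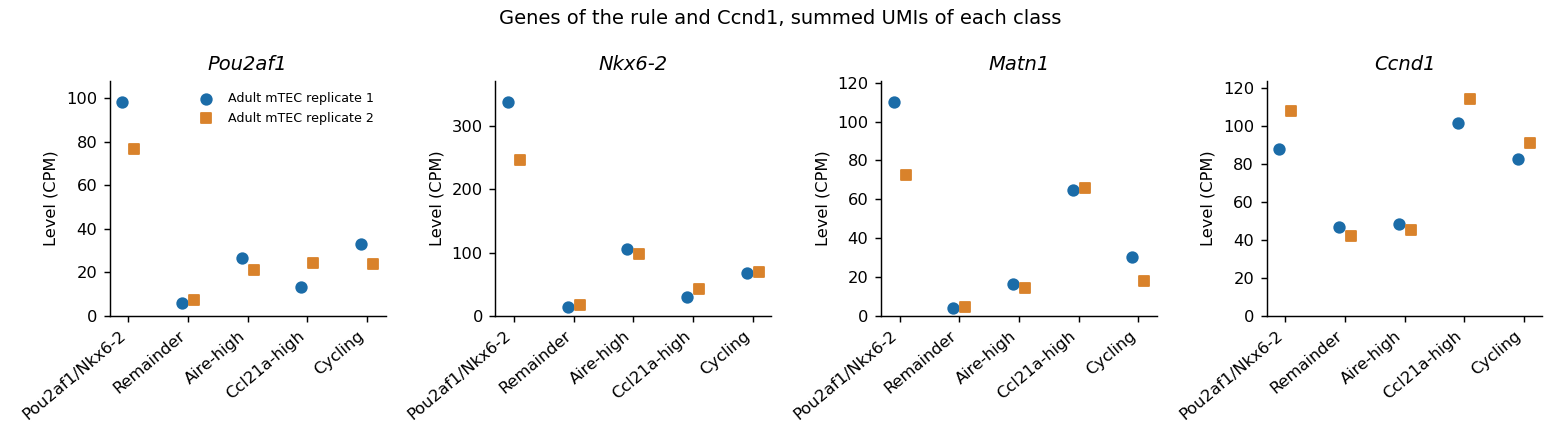
Level (CPM) of the 3 marker genes and Ccnd1 in the summed UMIs of each mTEC class, with replicate 1 as circles and replicate 2 as squares. The markers chose the members (labelled Pou2af1/Nkx6-2) and are a description, while Ccnd1 was not part of the rule and lies between 87.8 and 114 CPM in members and Ccl21a-high cells and at or below 48.5 in the remainder and Aire-high cells.

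Values just inside and just outside the limits are given as a description, since the rule chose these cells. Just inside the marker limit lay 16 and 120 cells with exactly 2 marker UMIs, and just outside it 47 and 434 cells with 1. Just inside the Aire limit lay 17 and 70 cells with 4 Aire UMIs, with Nkx6-2 at 372 and 251 CPM, and just outside it 17 and 60 marker-positive cells with 5, with Nkx6-2 at 388 and 251 CPM. Just inside the Ccl21a limit lay 11 and 63 cells with 0.25 to 0.5% of UMIs from Ccl21a and Matn1 at 163 and 166 CPM, and just outside it 24 and 86 with 0.5 to 1% and Matn1 at 223 and 220 CPM. An Aire UMI was held by 71.3% and 84.5% of members and by 51.5% and 74.8% of all adult mTEC, and cells of the remainder with 0 marker UMIs held Aire at 155 and 147 CPM. The part of free Aire RNA in these shares was not tested. The limits count UMIs, so they move with depth: when the rule was applied to cells thinned to 4000 UMIs it took 115 of 1536 and 320 of 5257 cells, of which 61 and 154 were members at full depth.

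When the 7 genes of the rule were left out and the 20 nearest cells of each member were found in each library, the members lay partly together. In thinned cells, 31.1% and 25.2% of the neighbours of members were members, which made up 6.90% and 7.95% of the cells. Aire-high cells supplied 33.6% and 28.5% of the neighbours and were 30.1% and 32.1% of the cells, while Ccl21a-high cells supplied 11.7% and 9.06% and were 43.0% and 20.9%. In only 17.9% and 13.4% of members did other members make up most of the neighbours. The cells therefore did not form a closed group, and no test was made on this description.

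**Figure D2:**
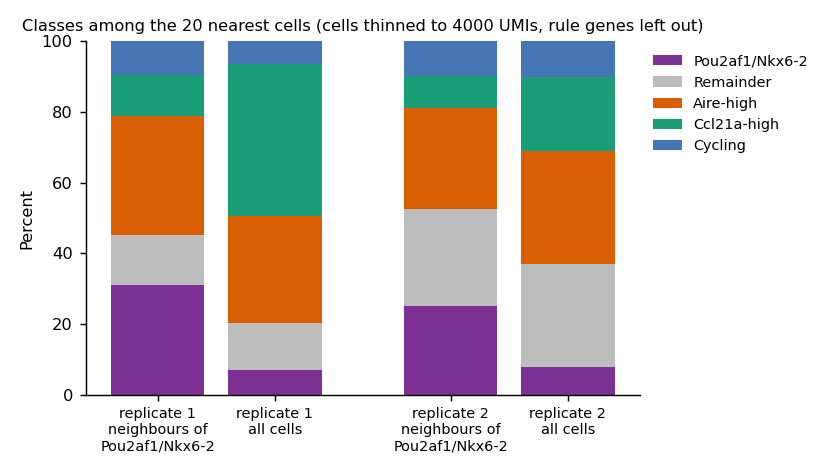
Percent of the 20 nearest cells of the members that belonged to each class, beside the percent of each class among all cells of the library, after thinning to 4000 UMIs and without the genes of the rule. Members make up 31.1% and 25.2% of their own neighbours against 6.90% and 7.95% of the cells, and Ccl21a-high cells are fewer among the neighbours than among all cells.

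The comparison with the remainder asks what accompanies the markers among cells that passed the same limits on Aire, Ccl21a and proliferation genes. Of 15609 genes tested, 1138 (7.29%) were higher in members and 761 (4.88%) lower, with a median log2 difference over all genes of -0.14. Genes with an average log2 CPM over 5, where the ribosomal protein genes lay, had a background of the opposite sign: of 4067, 29.1% were called and the median was 0.14. The medians of the ribosomal, S phase and ribosome biogenesis lists lay above both values and those of the keratinised, tuft and microfold lists below both. Within the range of 5000 to 20000 UMIs per cell, 732 genes were higher and 451 lower.

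Mfng, Hes6 and Slc46a2 each had a log2 difference over 2 against the remainder. Mfng, a fringe glycosyltransferase that modifies Notch receptors, was at 79.7 and 58.0 CPM in members and 15.03 and 16.9 in the remainder (log2 difference 2.13 ± 0.21 SE, edgeR adjusted p = 0.00184). Its average log2 CPM in this fit, 4.82, lay under the limit of 5 set for named genes, and it was named from the comparison with all other mTEC. Members lay above each of the other classes for Mfng in both libraries, the next highest being 29.1 CPM in Aire-high cells of replicate 1. After thinning, Mfng was detected in 27.4% and 17.46% of members, against 5.31% and 5.96% of the remainder, 12.1% and 7.65% of Aire-high cells and 2.72% and 5.005% of Ccl21a-high cells.

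Hes6, a basic helix-loop-helix factor that promotes neural differentiation, was at 835 and 543 CPM against 168 and 172 in the remainder (2.10 ± 0.23, edgeR adjusted p = 0.00242). Its level in members was above that of every other class in both libraries. Slc46a2, a solute carrier of the thymic stroma, was at 206 and 159 CPM against 47.7 and 44.9 in the remainder (2.08 ± 0.19, edgeR adjusted p = 0.00152). Unlike Mfng and Hes6, Slc46a2 was at similar levels in Ccl21a-high cells, at 169 and 205 CPM. The ligands Wnt10a (133 and 103 against 63.2 and 46.7 CPM) and Wnt10b (32.5 and 64.0 against 8.81 and 19.2) were also higher, by 1.23 ± 0.13 and 1.89 ± 0.27. Angptl2, a secreted angiopoietin-like protein, was at 66.4 and 68.1 CPM against 18.7 and 22.2 (1.79 ± 0.13) and was higher still in Ccl21a-high cells, at 98.1 and 92.6. The 8 largest increases above that limit of log2 CPM also held H2afy2, the histone variant macroH2A2 (1.75 ± 0.15), Mcm5 of the replication helicase (1.63 ± 0.26), and Fstl1, a secreted follistatin-like protein (1.63 ± 0.21).

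**Figure D3:**
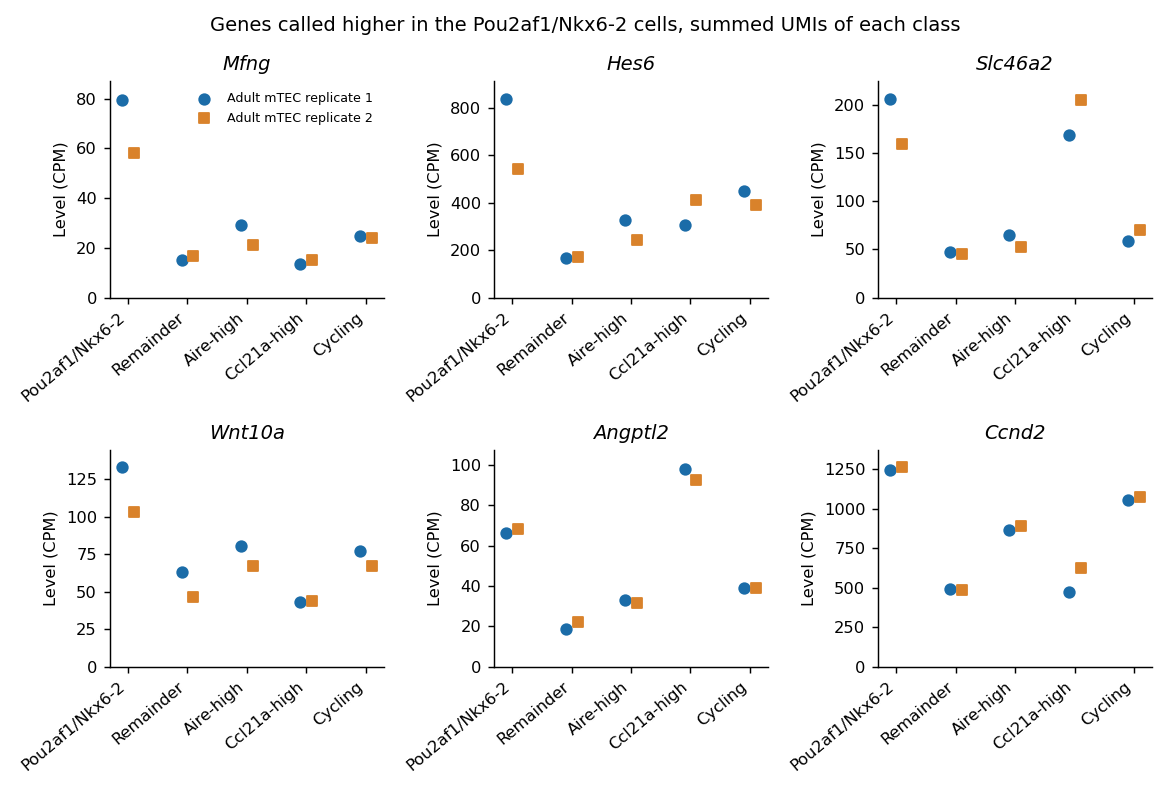
Level (CPM) of Mfng, Hes6, Slc46a2, Wnt10a, Angptl2 and Ccnd2 in the summed UMIs of each class, circles for replicate 1 and squares for replicate 2. The members (labelled Pou2af1/Nkx6-2) lie above all other classes for Mfng, Hes6, Wnt10a and Ccnd2 in both libraries, whereas Ccl21a-high cells lie above the members for Angptl2 in both libraries and for Slc46a2 in replicate 2.

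Part of the S phase list was higher although cells with 3 or more UMIs of Top2a and Mki67 had been left out. Of 30 S phase genes tested, 15 were higher than in the remainder, 0 lower and 15 not called, with a median log2 difference of 0.98. Mcm2, a subunit of the replicative helicase, was at 42.0 and 26.5 CPM against 12.96 and 7.46 (1.92 ± 0.27, edgeR adjusted p = 0.00479), and Mcm5 at 59.0 and 31.5 against 13.47 and 14.6. The whole list summed to 1064 and 819.7 CPM in members, 579 and 465 in the remainder and 2979 and 1991 in cycling cells. The S phase transcripts thus went partly against calling the population resting, and it is named Pou2af1/Nkx6-2 cells after its rule. In the range of 5000 to 20000 UMIs, 9 S phase genes were higher and 0 lower.

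Among 24 genes of the G1 machinery, 6 were higher, 3 lower and 15 not called (median 0.37), beside 903 higher and 282 lower of the 4067 genes with an average log2 CPM over 5. Ccnd2, encoding cyclin D2, was at 1246 and 1264 CPM against 492 and 488 (1.48 ± 0.10, edgeR adjusted p = 0.000995), and Cdk4, its kinase partner, at 423 and 320.1 against 189 and 131 (1.35 ± 0.11). Ccnd1, encoding cyclin D1 and listed as a marker of the population, was at 87.8 and 108 against 46.6 and 42.2 (1.29 ± 0.14, edgeR adjusted p = 0.00229). E2f1 (1.88 ± 0.32), Myc (0.97 ± 0.18) and Cdkn2c also rose. The cyclin-dependent kinase inhibitors Cdkn1a (114 and 154 against 527 and 473 CPM, -1.77 ± 0.21), Cdkn2a (-1.47 ± 0.20) and Cdkn2b (-1.21 ± 0.13) were lower. Against Aire-high cells these inhibitors were not called (0.14, -0.28 and -0.21). Against Ccl21a-high cells Cdkn2a (2.19) and Cdkn2b (1.18) were higher and Cdkn1a (-0.48) was not called. Of the 26 genes of G2 and M phase, 4 were higher than in the remainder and 0 lower (median 0.58), and they were Ccnb2, Cenpa, Hmgb2 and Tacc3. Top2a and Mki67 are limited by the rule, so genes that move with them are limited too.

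Translation genes rose together. Of 37 ribosomal protein genes, 36 were higher in members than in the remainder and 0 lower (median 0.58), and of 22 ribosome biogenesis genes 16 were higher and 0 lower (median 0.80). Npm1, a nucleolar chaperone, was at 1401 and 1201 CPM against 711 and 618 (1.09 ± 0.09, edgeR adjusted p = 0.000995), and Ncl (nucleolin) at 685 and 878 against 375 and 458 (1.02). Rps2, of the small ribosomal subunit, was at 2348 and 3077 CPM against 1415 and 1737. Members also held more UMIs per cell than the remainder, and the part of depth in these counts was not tested beyond the range of 5000 to 20000 UMIs, in which 35 ribosomal protein genes and 11 biogenesis genes were higher and 0 lower.

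Against the remainder, lists of specialised mTEC held genes that were lower. Of 13 tested keratinised genes 8 were lower and 0 higher (median -1.78), among them Krtdap (49.4 and 54.6 against 361 and 467 CPM, -2.89 ± 0.38) and Krt10 (62.0 and 43.6 against 120.2 and 152, -1.32 ± 0.20). Of 17 tuft genes 8 were lower and 0 higher (median -2.17), including Il25 at 0 and 3.23 CPM against 24.4 and 13.8. Of 10 microfold genes 5 were lower, led by the chemokine Ccl20 (7.38 and 52.6 against 758 and 606 CPM, -4.38 ± 0.58), Ccl6 (-4.18), Ccl9 (-3.29) and the microfold receptor Gp2 (-3.05 ± 0.51), and 1, Anxa5, was higher (0.46). Il9 (-4.30), Calm4 (-3.18), Spink5 (-3.08) and Gsto1 (-2.98) completed the 8 largest decreases among genes with an average log2 CPM over 5. For these 8 the same sign in both libraries was a condition of naming. The other classes gave other counts. Against Aire-high cells, 2 of 17 tuft genes were higher and 0 lower. In the keratinised list 1 gene was higher and 1 lower, and in the microfold list 0 were higher and 2 lower. Against Ccl21a-high cells, 2 tuft genes were higher and 2 lower. There 0 keratinised genes were higher and 1 lower, and 4 microfold genes were higher and 1 lower.

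Smaller numbers were called against the remainder in other lists of specialised cells, 0 of them higher. Tmem212, Fam183b and Foxj1 were lower of 8 tested ciliated genes, as were 3 of 12 muscle genes and 2 of 11 neuroendocrine genes. Of 6 claudin and Plet1 genes, Cldn4 (-1.38) and Ly6d (-1.24) were lower than in the remainder. Against Aire-high cells, 0 ciliated, 0 muscle and 1 neuroendocrine gene were higher, and 0, 2 and 1 lower. Against Ccl21a-high cells 1, 3 and 2 were higher, and 0, 1 and 2 lower. Relatives of the marker genes gave no call against the remainder by edgeR. There 0 of 3 tested Nkx and related homeobox genes, 0 of 6 Oct factor genes and 0 of 9 cartilage genes passed the test (1, 2 and 3 at an unadjusted p under 0.05, and 0, 1 and 1 called by DESeq2), with Pou2f1 at 12.5 and 11.4 CPM in members against 12.96 and 13.6, and Sox9 at 92.2 and 76.1 against 117 and 75.9. In the other comparisons a few relatives were lower and 0 higher, among them Pou2f2 (-2.47) and Col9a1 (-2.29) against Aire-high cells, Pou3f1 (-1.70) and Sox9 (-1.04) against Ccl21a-high cells, and Pou5f1 (-1.57) against all other mTEC.

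Lists of mTEC identity and signalling had few calls against the remainder. The share called was 15.4% in the mTEC I, 33.3% in the mTEC II, 18.8% in the Notch, 23.8% in the Wnt and 30% in the RANK, CD40 and NF-kB list, near or below the 29.1% of all genes with an average log2 CPM over 5, so the calls are given for single genes and not as a result about the lists. Of 13 mTEC I genes (median -0.06) 1 was higher and 1, Ly6a, lower (-1.58), and of 12 mTEC II genes (median -0.08) Fezf2 (693 and 520.1 against 493 and 381 CPM, 0.59 ± 0.15), a transcription factor that drives self-antigens apart from Aire, and Hagh (0.71) were higher and the chemokine Ccl22 (-2.87) and Ubd (-0.57) lower. By edgeR 0 of 9 MHC class II genes passed the test (median -0.08, 1 at an unadjusted p under 0.05, 0 called by DESeq2), and Cd74, the invariant chain, was at 21895 and 17125 CPM against 22484 and 15612. Of 16 Notch genes (median -0.45), Hes6 and the receptor Notch1 (52.4 and 34.9 against 19.7 and 26.9 CPM, 0.87 ± 0.23) were higher and the ligand Jag1 (-1.70) lower. Of 21 Wnt genes (median -0.30) Wnt10a, Wnt4 (0.83) and Sfrp1 (0.86) were higher and Tcf7l1 (-1.16) and Ctnnb1 (-0.41) lower. Of 20 genes of RANK, CD40 and NF-kB signalling (median -0.13) 3 were higher and 3 lower, with Tnfaip3, an inhibitor of NF-kB, at -1.30. Of 18 genes that dissociation induces, 4 were lower and 0 higher (median -0.28). Fezf2, Notch1, Ccnb2, Foxj1 and Il25 were no longer called in cells of 5000 to 20000 UMIs. Ccl22 lost its call once the cells marked as doublets were left out. As 0 members and 0 remainder cells were marked, the counts of these classes did not change, only the other classes of the shared fit.

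**Figure D4:**
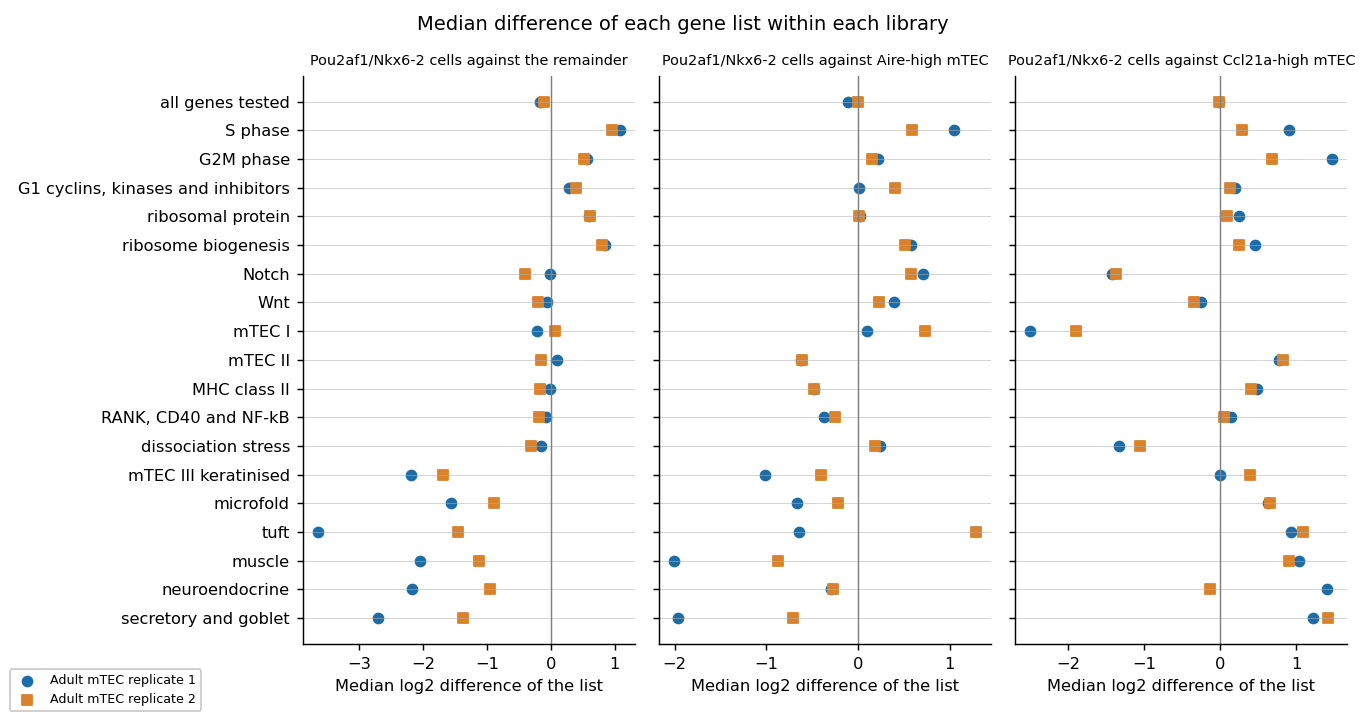
Median log2 difference of the tested genes of each list, Pou2af1/Nkx6-2 cells minus the named class, within replicate 1 (circles) and replicate 2 (squares), with the grey line at 0. S phase and ribosome biogenesis genes lie above 0 in all 3 panels, specialised mTEC genes lie below 0 against the remainder, and mTEC I and Notch genes lie below 0 against Ccl21a-high cells.

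The members were next set beside Aire-high cells, which held the largest share of the marker-positive cells. Aire was limited by the rule, and this comparison shares the summed members with the others. Of 15609 genes, 821 (5.26%) were higher in members and 787 (5.04%) lower, a split that moved to 649 and 934 with the alternative scaling by relative log expression (51.1% against 41.0% higher). The median over all genes was -0.03, and over the 4067 genes with an average log2 CPM over 5, of which 551 were higher and 297 lower, it was 0.09.

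Of 16 Notch genes 6 were higher in the members than in Aire-high cells, 0 lower and 10 not called (median 0.64). Hes1 was at 21.4 and 34.5 CPM against 8.50 and 8.81 (1.75 ± 0.21, edgeR adjusted p = 0.00621), Hey1 at 11.1 and 11.6 against 2.94 and 3.93 (1.64 ± 0.29), and Nrarp at 15.49 and 13.4 against 5.72 and 4.29 (1.53 ± 0.25). These 3 are transcriptional targets of Notch signalling. Notch1 rose by 1.28 ± 0.22 and Hes6 by 1.23 ± 0.22, while the ligand Jag2, with 2.95 and 6.98 against 0.817 and 2.74 CPM, lost its call under the alternative scaling. Mfng was higher by 1.42 ± 0.19 (edgeR adjusted p = 0.00782).

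Of 13 mTEC I genes 4 were higher in members than in Aire-high cells, 0 lower and 9 not called. Krt5, a basal keratin, was at 291 and 336 CPM against 67.0 and 88.1 (1.98 ± 0.23, edgeR adjusted p = 0.00543), and Lifr (1.58 ± 0.19) and Trp63 (1.41 ± 0.27) were among the 4, whereas Krt14, at 474 and 517 against 328 and 348, did not pass the test (0.53, edgeR adjusted p = 0.0841). Of 12 mTEC II genes, which mark mature cells, 5 were lower and 0 higher, with the costimulatory molecules Cd86 at 4.42 and 6.64 CPM against 17.3 and 20.3 and Cd40 at 139 and 108 against 326 and 212 (-1.14 ± 0.14), and with Cd83 (-2.30), Ccl22 (-3.02) and Ubd (-0.91). Cd86 lost its call when the cells marked as doublets were left out. Fezf2 was at 693 and 520.1 CPM against 779 and 611 and did not pass the test (log2 difference -0.23, 95% interval -0.56 to 0.10).

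Of 9 MHC class II genes 8 were lower and 0 higher (median -0.48), with H2-Aa at 6942 and 6473 CPM against 9422 and 8861 (-0.48 ± 0.07, edgeR adjusted p = 0.00919) and the cathepsin Ctss at 197 and 158 against 302 and 257 (-0.69). Of 30 S phase genes 13 were higher and 0 lower (median 0.90), of 24 G1 genes 7 were higher and 0 lower (median 0.32), and of 26 G2 and M phase genes 2 were higher and 0 lower (median 0.17). In the ribosome biogenesis list 13 of 22 genes were higher and 0 lower (median 0.55). In these classes of like depth, 0 of 37 ribosomal protein genes were called in either direction by edgeR (median 0.01, 6 at an unadjusted p under 0.05), whereas 6 were higher with 3 or more marker UMIs, 2 higher without a filter on low counts, 1 higher with all deposited cells and 1 lower under relative log expression scaling. Among stress genes 5 of 18 were higher, including Jun (656 and 484 against 408 and 289 CPM) and Atf3 (1.03). Of 20 RANK, CD40 and NF-kB genes, Traf1 (-1.25), Relb (-0.39) and 3 others were lower and Bcl3 was higher. Wfdc18, a secreted protein of the whey acidic family, was at 4004 and 3885 CPM against 466 and 1172 (2.34 ± 0.33).

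Transcripts of other cell types moved with this comparison too: 3 of 10 tested myeloid genes were lower and 0 higher, with Lyz2 at 155 and 260.4 CPM against 738 and 643, and the myeloid list summed to 219 and 356 CPM against 949.9 and 895. In the erythroid list 2 of 5 tested genes were lower, and in the thymocyte, B cell and mesenchymal lists 1 each of 12, 8 and 7, with 0 higher in all 4 lists. The part of such transcripts in the comparison was not tested.

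Against Ccl21a-high cells, most mTEC I genes tested were lower in the members. Of 15609 genes, 1528 (9.79%) were higher in members and 2012 (12.9%) lower, with a median of 0.02. Of the 4067 genes with an average log2 CPM over 5, 801 were higher and 825 lower, and the counts of lists are to be read beside these. Ccl21a was limited by the rule. Of 13 mTEC I genes 10 were lower and 0 higher (median -2.19): Krt5 stood at 291 and 336 CPM against 1502 and 1178 (-2.19 ± 0.23), Krt14 at 474 and 517 against 2563 and 1807 (-2.23 ± 0.17), and Apoe at 72.3 and 195 against 2514 and 1667 (-4.28 ± 0.50). Krt5 of the members was thus above Aire-high cells and below Ccl21a-high cells in both libraries. The same held for the remainder (325 and 215 CPM) and cycling cells (276 and 319). Slc46a2 did not pass the test (log2 difference -0.15, 95% interval -0.56 to 0.26), nor did Ccnd1 (-0.22, -0.52 to 0.07) or H2afy2 (0.13, -0.19 to 0.45).

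Transcripts of other cell types also moved with the comparison with Ccl21a-high cells. Of 7 tested mesenchymal genes, Acta2 (27.3 and 60.9 against 757 and 574 CPM, -4.08 ± 0.41) and Col3a1 (-2.63) were lower and 0 higher, and the mesenchymal list summed to 41.3 and 81.2 CPM against 772 and 592. Of 10 myeloid genes, Lyz2 (155 and 260.4 against 46.6 and 111 CPM, 1.33 ± 0.33) and Fcer1g (2.04) were higher and 0 lower, and the myeloid list summed to 219 and 356 CPM against 57.8 and 157. In the erythroid and endothelial lists 1 gene each was higher and 0 lower, and in the B cell list 1 was higher and 1 lower. Their part in the comparison was not tested.

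Of 16 Notch genes 10 were lower than in Ccl21a-high cells and Hes6 alone was higher (median -1.45), with Hes1 at 21.4 and 34.5 CPM against 92.2 and 88.1 (-1.70 ± 0.19), Jag1 at 5.16 and 4.25 against 27.0 and 14.1, and the ligand Dll1 at -1.99. The Notch list summed to 1013 and 726 CPM in members, 441 and 359 in Aire-high cells and 670.4 and 739 in Ccl21a-high cells, and Hes6 made up most of the sum in members. Mfng (2.14 ± 0.20) and Wnt10a (1.33 ± 0.13) were higher in members.

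Of 12 mTEC II genes 7 were higher than in Ccl21a-high cells and 0 lower (median 0.87), with Cd80 at 43.5 and 27.9 CPM against 5.54 and 8.33 (2.15 ± 0.27) and Fezf2 at 693 and 520.1 against 231 and 263 (1.18 ± 0.15). Of 9 MHC class II genes 5 were higher (median 0.44). The MHC class II list as a whole summed to 41300.1 and 35292 CPM in members, 53196 and 45690.5 in Aire-high cells and 29174.5 and 26273 in Ccl21a-high cells. The members thus lay between those classes in both libraries. That position was not particular to them for H2-Aa, at 7719 and 6675 CPM in the remainder and 5388 and 5446 in cycling cells. H2-Aa was at 4636 and 4599 CPM in Ccl21a-high cells and 9422 and 8861 in Aire-high cells. Of 26 G2 and M phase genes 13 were higher and 0 lower (median 0.99), among them Cenpa (67.1 and 32.8 against 10.7 and 7.17 CPM, 2.31 ± 0.15), and of 30 S phase genes 8 were higher and 0 lower (median 0.57). Of 18 stress genes 14 were lower and 0 higher (median -1.15), with Jun at 656 and 484 against 2512 and 1771 CPM. The ribosomal protein list depended on the setting, with 13 higher and 1 lower of 37, 25 higher under relative log expression scaling, 30 with 3 or more marker UMIs, 7 without a filter on low counts and 0 without the library term.

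**Figure D5:**
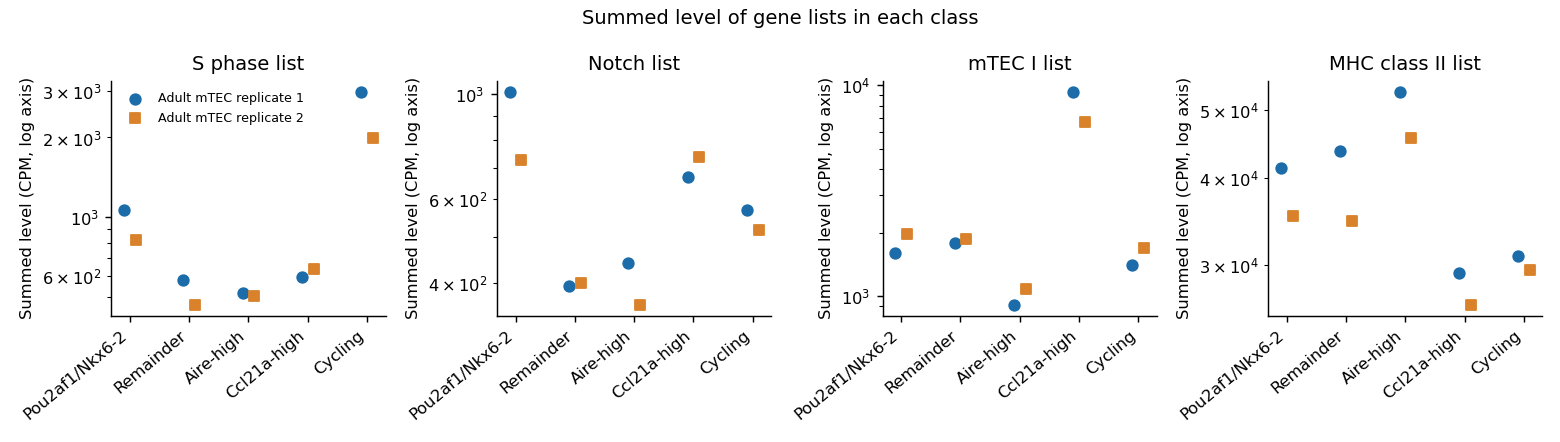
Summed level (CPM, log axis) of the S phase, Notch, mTEC I and MHC class II lists in each class, circles for replicate 1 and squares for replicate 2. The members (labelled Pou2af1/Nkx6-2) lie between cycling cells and the remainder for S phase genes and between Aire-high and Ccl21a-high cells for MHC class II genes. For the single gene H2-Aa, the remainder and cycling cells lay between those 2 classes too.

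The comparison with all other mTEC of each library rested on 4 sums and 1 residual degree of freedom, and part of it was fixed by the limits that keep Ccl21a-high, Aire-high and cycling cells out. Of 15596 genes, 254 (1.63%) were higher in members and 467 (2.99%) lower. The count ranged from 0 without the library term (1268 genes at an unadjusted p under 0.05 by edgeR, 388 called by DESeq2 with the term) and 6 with all deposited cells to 1674 without a filter on low counts, so single genes are given here with their levels.

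Among genes with an average log2 CPM over 5, the 15 largest increases included Mfng, Hes6, 2310040G24Rik, Slc46a2, Wnt10a, Baiap2, Ccnb2, Slc24a4, Grb7, Kif26a, H2afy2, Grasp, Wnt10b and Cbfa2t3. Mfng was at 79.7 and 58.0 CPM in members against 21.2 and 19.5 in other mTEC (1.80 ± 0.15, edgeR adjusted p = 0.000534), and Hes6 at 835 and 543 against 313 and 279 (1.26 ± 0.11). Baiap2, an adaptor of the actin cytoskeleton (78.2 and 64.8 against 32.0 and 41.2 CPM), and Grasp, a scaffold protein (76.0 and 74.2 against 44.0 and 42.9), did not pass the test against the remainder, where Baiap2 was at 64.3 and 59.4 CPM (log2 difference 0.32) and Grasp at 55.4 and 37.7 (0.87). Cbfa2t3, a transcriptional corepressor, was at 46.5 and 59.6 CPM against 25.0 and 36.8, and did not pass against the remainder's 25.4 and 51.9 (0.54). Nor did Kif26a (0.64) and Grb7 (0.77) pass against the remainder. Ccnd1 was higher by 0.64 ± 0.13 (edgeR adjusted p = 0.0249), but was not called by DESeq2. With all deposited cells, Mfng and Slc46a2 alone of the 15 kept their call. In this comparison 4 of 10 myeloid, 1 of 7 mesenchymal and 1 of 5 erythroid genes were lower and 0 higher, and their part in it was not tested.

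The 15 largest decreases above the same limit were Ccl11, Mgp, Ifit3, Gas1, Fst, Hist1h2ap, Ccl20, Rarres1, Apoe, Ccl17, Rtp4, Gsn, Psca, Acta2 and Tagln. 10 of them had their highest level in Ccl21a-high cells in both libraries, among them the chemokine Ccl11 (2.95 and 7.49 CPM in members against 402 and 49.5 in other mTEC, -3.98 ± 0.51), the matrix protein Mgp (8.11 and 21.3 against 247 and 105), and the smooth muscle genes Acta2 and Tagln. These 10 describe the class that the Ccl21a limit left out. Ccl20, Rarres1, Ccl17 and Psca were highest in the remainder or in Aire-high cells, with Psca at 4.42 and 38.5 CPM in members against 109 and 107. Hist1h2ap, a histone gene transcribed in S phase, was at 2.95 and 33.0 CPM against 7.85 and 215 (-2.54), and without cycling cells among the other mTEC its difference was 0.056.

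Within the members, cells that held different markers differed in level, which is given without a test because the markers chose the subsets. Hes6 was at 1012 and 669 CPM in the 51 and 166 cells with both Pou2af1 and Nkx6-2, 730.1 and 459.6 in the 32 and 143 cells with Nkx6-2 alone, and 613 and 408 in the 12 and 53 cells with Pou2af1 and no Nkx6-2. Slc46a2 followed the same subset, at 254 and 199 CPM with both genes against 137 and 121 with Nkx6-2 alone and 148 and 125 with Pou2af1 and no Nkx6-2. The cells with both factors thus held the highest level of Hes6 and Slc46a2 in each library. Krt5 was lowest in cells with Nkx6-2 alone, at 183 and 238 CPM, and stood at 308 and 343 with both genes and at 369.7 and 502 in the 27 and 120 cells with any Matn1, which overlap with the other subsets. Mfng was at 82.6 and 50.5 CPM with Nkx6-2 alone and 80.8 and 42.7 with Pou2af1 and no Nkx6-2, so that every subset lay above the 29.1 CPM reached by the highest other class.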

How the data were processed

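The deposited files are raw UMI counts per gene and cell, made by the authors with Cell Ranger on mm10 (the labels name version 2.0.1 with STAR 2.5.1b and bcl2fastq 2.17, and the matrix headers of replicate 2 name 3.0.1). Cells over 5% mitochondrial UMIs or 5000 genes were left out, which kept 1586 of 1818 and 5615 of 7023 mTEC. The 27514 genes common to both gene lists were used. Total UMIs of the members were 1360436 and 5892055. The counts of each class were summed within each library and tested with edgeR 4.0.16 (filterByExpr, TMM, quasi-likelihood, Benjamini-Hochberg adjusted p under 0.05). The members and gene lists were chosen with earlier results of these data known. Genes of the rule were not tested. Both sums of a comparison came from the same library, so the library term pairs them.

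Named genes were the rule genes, Ccnd1, genes of the lists, and those with the largest differences (15 per direction against other mTEC, 8 against the remainder) among called genes with an average log2 CPM over 5 and the same sign in both libraries. Some genes that met this rule are not reported here. Neighbours came from 20 principal components of 2000 variable genes (scikit-learn 1.9.0), and doublets were called by scrublet in scanpy 1.11.5. On simulated data, 200 of 200 genes changed by a log2 of 1.5 were recovered against other mTEC with 3.85% false calls among 15603 genes, and 198 of 200 with 6.60% against the remainder among 15616. Alternatives were DESeq2 1.42.0, limma 3.58.1, other scaling, filters and limits. Sequences were taken from RefSeq (GRCm38.p6), and 11715 of the 15609 tested genes matched a window.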

Additional observations from a re-analysis of the deposited data

Results flagged for a closer look

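The limits of the rule were also met by cells of the other 6 libraries, which entered no comparison. Their counts are given as values, since Nkx6-2 from free RNA was not told apart from expression in them. In adult cTEC they took 8 of 507 cells (1.58%) in replicate 1 and 5 of 535 (0.935%) in replicate 2. They took 22 of 1981 cells (1.11%) at E13.5, 68 of 3571 (1.90%) at E15.5, 34 of 8350 (0.407%) at E17.5 and 7 of 3605 (0.194%) in newborn cTEC. Nkx6-2 was detected in all of these cells except 1 at E15.5 and 6 at E17.5, and Pou2af1 in 1 cell at E13.5, 1 at E15.5 and 5 at E17.5. In the adult mTEC members 58.3% and 51.5% of cells held Pou2af1.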

How the results depend on the processing

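Counts of called genes depended most on the setting where 1 residual degree of freedom was left. Against other mTEC, 721 genes were called, and 388 with DESeq2, 1136 with relative log expression scaling, 6 with all deposited cells, 1214 with cells of 5000 to 20000 UMIs, 135 with limma on means of cells and 1674 without a filter on low counts. Without the library term (no replicate block) 0 were called against other mTEC by edgeR (1268 at an unadjusted p under 0.05), 149 against the remainder, 63 against Aire-high and 1549 against Ccl21a-high cells. With cells of 5000 to 20000 UMIs, 1183 were called against the remainder. The share of members moved in replicate 1 to 9.77% with 1 or more marker UMIs, 16.1% without the Aire limit and 12.2% without the Ccl21a limit. In replicate 2 it moved to 6.56% with all deposited cells, 15.3% with 1 or more marker UMIs, 5.43% with 3 or more, 17.47% and 11.2% without the limits on Aire and Ccl21a, and 6.09% after thinning. Hist1h2ap against other mTEC turned to 0.056 without cycling cells. The 152 gene results kept their direction within each library alone, which the naming rule required of those chosen by the largest differences. No count of calls could be fitted within 1 library for want of residual degrees of freedom. Of the 152 results, 31 lost their call with all deposited cells and 102 without the library term. The cause of these changes was not tested.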
